A study of Homo sapiens with 8 samples.

Results

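AP-1 transcription factor genes and other immediate early genes were examined in KM-H2, a Hodgkin lymphoma cell line, for their signal in total RNA, their share in RNA bound by Argonaute 2 (Ago2), and their response to a miR-155 sponge. The 10 genes were FOS, FOSB, FOSL1, FOSL2, JUN, JUNB, JUND, EGR1, IER2 and IER5, chosen by name. The choice was made with earlier results of these data known. All probes of the array whose transcript accession a RefSeq table assigns to one of them were taken, which gave 15 of the 41000 probes, for 9 of the 10 genes (9 of 16557 genes named on the array). For JUND no probe was matched, and it was not analysed here.

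KM-H2 cells had been transduced either with the empty pMSCV-PIG vector (EV) or with a construct expressing a miR-155 sponge (miR-155-sp), and GFP+ cells had been sorted. From each population, total RNA (T) and the RNA precipitated with an antibody against Ago2 (IP) were hybridized to 2-color Agilent arrays, so that there were 4 groups with 1 RNA sample each. Every sample was labelled once with Cy3 and once with Cy5 (8 channels on 4 arrays). The 2 labellings share 1 RNA and are technical, so no test across samples was possible, no difference below has a replicate check, and the SD given is that of 2 dye orientations. Wherever 2 ratios stand in brackets, the first comes from the array that carried the IP fraction in Cy5 and the second from the array that carried it in Cy3.

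AP-1 is a dimer of a Jun protein with a Fos protein, another Jun protein or a related basic leucine zipper (bZIP) factor, and it activates genes through a short palindromic DNA element. Several of its genes, together with EGR1, IER2 and IER5, are immediate early genes, which are transcribed within minutes after growth factor or stress signals without new protein synthesis and whose mRNAs are often short-lived. In Hodgkin lymphoma cells constitutive AP-1 activity with strong JUN and JUNB expression is well known, and AP-1 is also known as an activator of MIR155HG, the transcript from which miR-155 is made.

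MiR-155-5p, the miRNA that the sponge was built to capture, is shown first, as the perturbation of this study acts on it. Capitals mark the seed, bases 2 to 8, whose complement AGCAUUA in an mRNA is the core of a target site. The sequence is from RefSeq (GRCh38.p14, chromosome 21, plus strand, bases 25573983 to 25574006).
hsa-miR-155-5p: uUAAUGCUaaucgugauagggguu

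Promoter windows of 30 bases from RefSeq (GRCh38.p14) show the DNA elements by which AP-1 and serum signals are known to act on these genes. Each line holds the strand of the gene, 5′ to 3′, with the match in capitals. The MIR155HG window (chr21:25562073-25562102, plus strand) holds the AP-1 element TGANTCA, the JUN window (chr1:58784096-58784125, minus strand) the longer form TGACNTCA, and both EGR1 windows (chr5:138465364-138465393 and chr5:138465386-138465415, plus strand) a CArG box, the element bound by serum response factor.
MIR155HG: cctggtcggttaTGAGTCAcaagtgagtta
JUN: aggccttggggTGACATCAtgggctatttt
EGR1, upstream match: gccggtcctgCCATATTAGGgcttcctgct
EGR1, downstream match: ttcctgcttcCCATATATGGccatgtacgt

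The matches start 60 bases before the annotated gene start in MIR155HG, 67 before it in JUN, and 105 and 83 before it in EGR1. Both strands were searched over 250 bases before and 50 after the start. TGANTCA was present in 7.71% of 35116 such promoters, TGACNTCA in 7.72% and the CArG box in 1.29%. Of the 9 members with a promoter in the table, FOSL2 held TGANTCA, JUN and JUND held TGACNTCA, and EGR1 held the CArG box. None of these letters were found in the windows of FOS, FOSB, JUNB, IER2 and IER5, which says nothing about regulation from other positions. A match describes the sequence and is not a measured binding site. FOSL1 had no entry.

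Signals are log2 values of the processed spot intensity after quantile normalization over the 8 channels. A probe was retained when it was flagged as well above background in at least 4 channels and when the Cy3 and Cy5 labellings of each sample lay within 2-fold, which left 17912 of 41000 probes (43.7%). Between 58.9% and 61.9% of spots were well above background in the Cy3 channels and between 38.8% and 43.4% in the Cy5 channels, so dim probes were measured mainly in Cy3. Among the markers of Hodgkin cells TNFRSF8, FUT4, CCL17, CCL22, IRF4, FSCN1, TRAF1, CD40, CD70 and MIR155HG, 9 genes had a retained probe and CCL22 did not. Of the B-cell markers, CD79A was retained, whereas PAX5 and CD79B were not well above background in any channel. A CD14 probe and one of the CD3E probes were also retained, and the part that RNA of other cell types might have in the values below was not tested.

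Of the 15 member probes 9 were retained, for FOSL1, JUN, JUNB, IER2 and IER5, and 8 of these 9 passed the background flag in all 8 channels. The 6 other probes, for FOS, FOSB, FOSL2 and EGR1, were dim or differed between labellings. In these cells the Jun members JUN and JUNB, the Fos member FOSL1 and both IER genes were thus measured in full, and FOS, FOSB, FOSL2 and EGR1 in part or not at all.

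**Figure D1:**
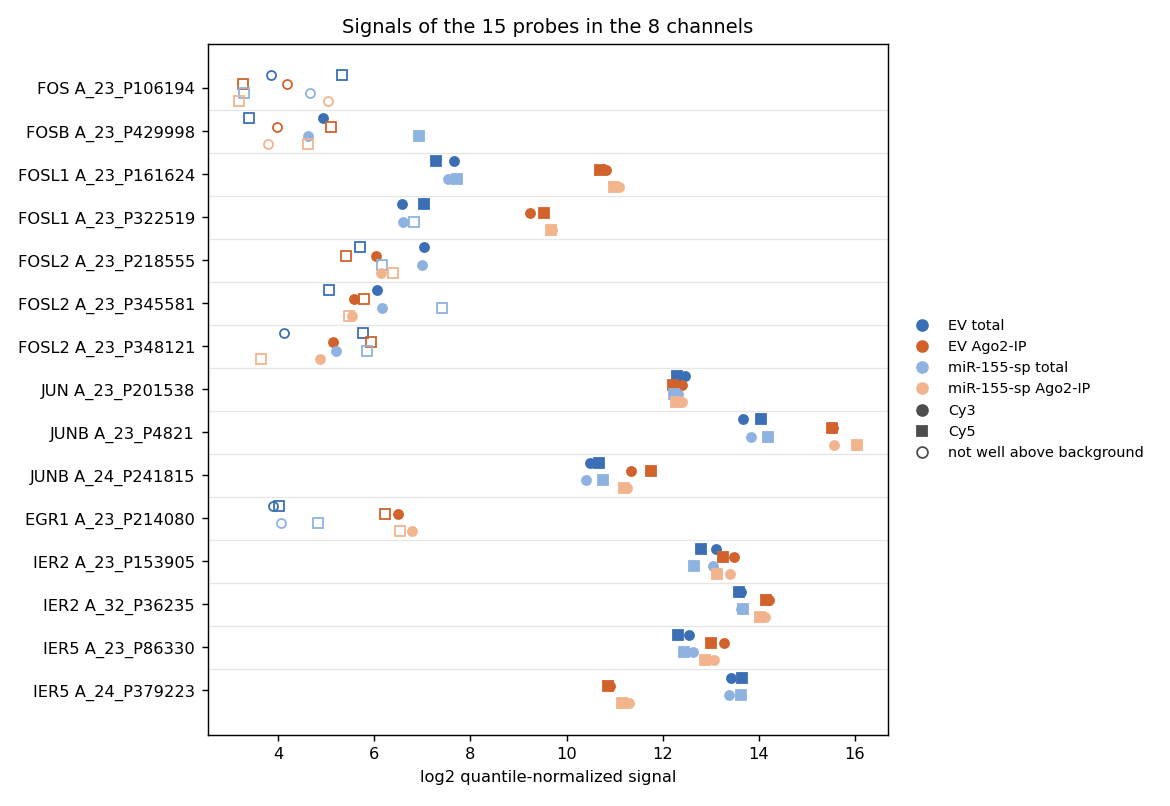
Log2 quantile-normalized signal (x axis) of the 15 member probes (y axis) in the 8 channels, with total RNA in blue, Ago2-IP RNA in orange, EV in dark and miR-155-sp in light shades, Cy3 as circles and Cy5 as squares. Open symbols are signals not well above background. The IP symbols lie to the right of the total symbols for FOSL1, JUNB and EGR1, and to the left for the IER5 probe A_24_P379223.

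In EV cells an IP/T ratio of 2 or more was seen for 3 of the 9 retained member probes, against 14.8% of all retained probes. These were both FOSL1 probes and 1 of the 2 JUNB probes, and each passed 2 in both dye orientations, as did 12.3% of all retained probes. One IER5 probe had an IP/T ratio of 0.5 or less, against 12.9% of all retained probes, and it also did so in both orientations (background 7.81%). The ratio was above 1 in both orientations for 7 of the 9 probes (background 32.6%) and below 1 in both for 1 (background 51.6%). The median log2 IP/T over the 9 probes was 0.71, and that over all 17912 retained probes was -0.24. The 9 probes represent 5 genes, and probes of a gene are not independent of each other.

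FOSL1, which codes for a Fos protein without the C-terminal activation domain of FOS, had the highest IP/T ratios among the members. In total RNA the log2 signals of probe A_23_P161624 were 7.66 (Cy3) and 7.29 (Cy5) in EV cells and 7.53 and 7.72 with miR-155-sp. In IP RNA they were 10.82 and 10.69 in EV cells and 11.10 and 10.99 with miR-155-sp. All 4 IP signals of this probe lay far above all 4 total signals, with no overlap.

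The IP/T ratio of A_23_P161624 was 9.73 in EV cells (8.18 and 11.6), and its orientations gave 11.0 and 10.4 with miR-155-sp. The mean ratio was in both populations higher than that of at least 98.3% of the retained probes. With normexp background correction followed by loess and Aquantile normalization, the ratio was 3.73 in EV and 4.00 with miR-155-sp, so under this combined change of background correction and normalization the ratio was smaller and stayed above 2.

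The other FOSL1 probe, A_23_P322519, showed the same order. Its total signals were 6.59 and 7.04 in EV and 6.59 and 6.82 with miR-155-sp, the last of which was not well above background. Its IP signals were 9.23 and 9.52 in EV and 9.69 and 9.68 with miR-155-sp. Again the IP signals and the total signals did not overlap. The IP/T ratio was 5.92 in EV (7.66 and 4.58) and 7.89 with miR-155-sp (8.53 and 7.31), with 2.27 and 2.21 under normexp.

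JUNB, a Jun protein that often restrains JUN and is abundant in Hodgkin lymphoma, was represented by 2 probes. For A_23_P4821 the log2 signals in total RNA were 13.67 and 14.05 in EV and 13.84 and 14.20 with miR-155-sp, and those in IP RNA were 15.53 and 15.52 in EV and 15.56 and 16.05 with miR-155-sp. Every IP signal of this probe exceeded every total signal. This gave an IP/T ratio of 3.18 in EV (3.60 and 2.80) and 3.44 with miR-155-sp (4.61 and 2.57), above 91.9% and 92.2% of the retained probes.

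For the other JUNB probe, A_24_P241815, the signals were 10.48 and 10.69 in EV total, 11.34 and 11.76 in EV IP, 10.40 and 10.75 in miR-155-sp total, and 11.26 and 11.21 in miR-155-sp IP. Here too all IP signals were higher than all total signals, by a smaller step. The IP/T ratio was 1.96 in EV (2.43 and 1.57) and 1.58 with miR-155-sp (1.75 and 1.42), so that in EV cells only the array with IP in Cy5 placed it past 2-fold. The JUNB probes thus shared the direction of their IP/T ratio and differed in its size by 1.62-fold in EV and 2.18-fold with miR-155-sp.

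JUN, the founding AP-1 subunit, was the member with the least difference between fractions. Its probe A_23_P201538 was printed in 10 spots per array, whose SD was between 0.03 and 0.22 on the log2 scale within a channel. The log2 signals were 12.46 and 12.30 in EV total, 12.40 and 12.21 in EV IP, 12.32 and 12.23 in miR-155-sp total, and 12.39 and 12.27 in miR-155-sp IP. The 4 samples overlapped. IP/T was 0.948 in EV (0.841 and 1.07) and 1.04 with miR-155-sp (0.966 and 1.12), and in both populations the dye orientations fell on either side of 1. A ratio near 1 here is relative to all probes, and 57.2% and 62.9% of the retained probes had a lower one.

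IER2, which codes for a small nuclear protein that acts in transcription, was measured by 2 probes with similar ratios. The signals of A_32_P36235 were 13.64 and 13.59 in EV total, 14.20 and 14.14 in EV IP, 13.63 and 13.67 in miR-155-sp total, and 14.12 and 14.04 in miR-155-sp IP. The IP signals of this probe were all above the total signals. Its IP/T ratio was 1.48 in EV (1.42 and 1.53) and 1.34 with miR-155-sp (1.33 and 1.36).

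The second IER2 probe, A_23_P153905, gave 13.11 and 12.81 in EV total, 13.48 and 13.26 in EV IP, 13.04 and 12.64 in miR-155-sp total, and 13.39 and 13.13 in miR-155-sp IP. Cy3 signals were higher than Cy5 signals in each of the 4 samples, and the IP signal was above the total signal of the same dye in each population. IP/T was 1.33 in EV (1.11 and 1.59) and 1.34 with miR-155-sp (1.06 and 1.68).

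IER5, a regulator of the heat shock factor HSF1, was the member whose probes disagreed. For A_23_P86330 the log2 signals were 12.55 and 12.32 in EV total, 13.28 and 13.01 in EV IP, 12.64 and 12.44 in miR-155-sp total, and 13.07 and 12.89 in miR-155-sp IP. For A_24_P379223 they were 13.43 and 13.66 in EV total, 10.91 and 10.87 in EV IP, 13.39 and 13.63 in miR-155-sp total, and 11.30 and 11.16 in miR-155-sp IP. The first probe was higher in IP RNA and the second far lower in it, without overlap in either case.

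The IP/T ratio of A_23_P86330 was 1.64 in EV (1.38 and 1.94) and 1.36 with miR-155-sp (1.19 and 1.55). That of A_24_P379223 was 0.159 in EV (0.169 and 0.149) and 0.206 with miR-155-sp (0.213 and 0.200), and only 0.195% and 0.279% of the retained probes had a lower one. The probes therefore differed 10.3-fold in IP/T in EV and 6.59-fold with miR-155-sp. Over the 2766 genes with more than 1 retained probe the median of this range was 1.27-fold in EV cells, and 11 genes had a wider range than IER5. Both probes carry the same transcript accession in the array files. Which of them reports the IER5 mRNA was not tested, and no single direction is given for the gene.

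**Figure D2:**
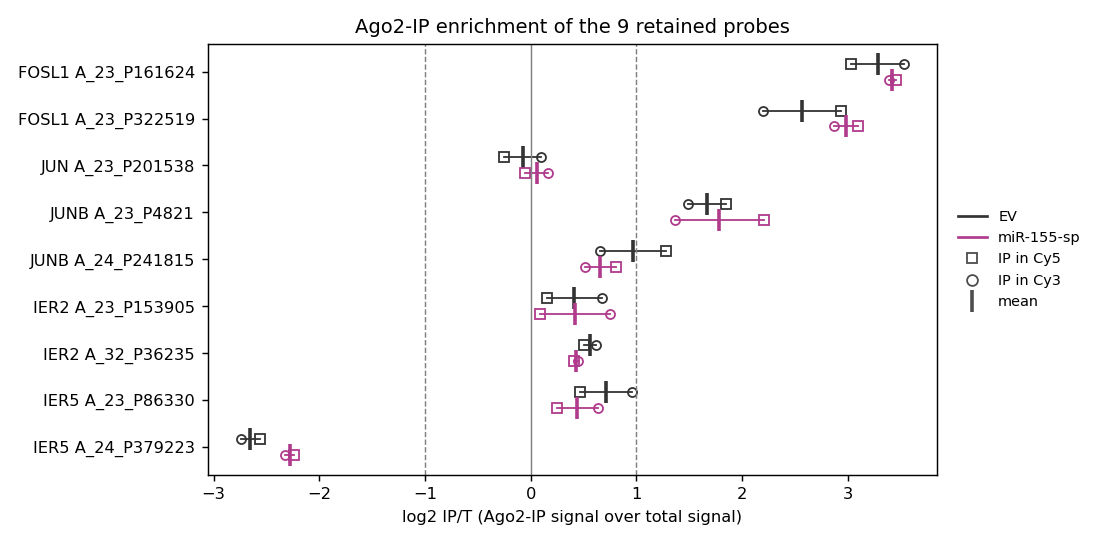
Log2 IP/T (x axis) of the 9 retained member probes (y axis) in EV (black) and miR-155-sp cells (purple), with squares for arrays with IP in Cy5, circles for arrays with IP in Cy3 and upright bars for their mean. Dashed lines mark 2-fold. Both FOSL1 probes and JUNB A_23_P4821 lie beyond 2-fold on the right, IER5 A_24_P379223 beyond it on the left, and JUN at 0, in both populations.

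In miR-155-sp cells the same probes passed both ratios. Ratios of 2 or more were found for 3 of 9 probes (15.6% of all retained probes), in both orientations for the same 3 (12.9%), and a ratio of 0.5 or less for 1 (14.1%), again in both orientations (8.23%). The ratio was above 1 in both orientations for 7 probes (32.4%) and below 1 in both for 1 (51.9%). The median log2 IP/T over the members was 0.44, against -0.26 over all retained probes.

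**Figure D3:**
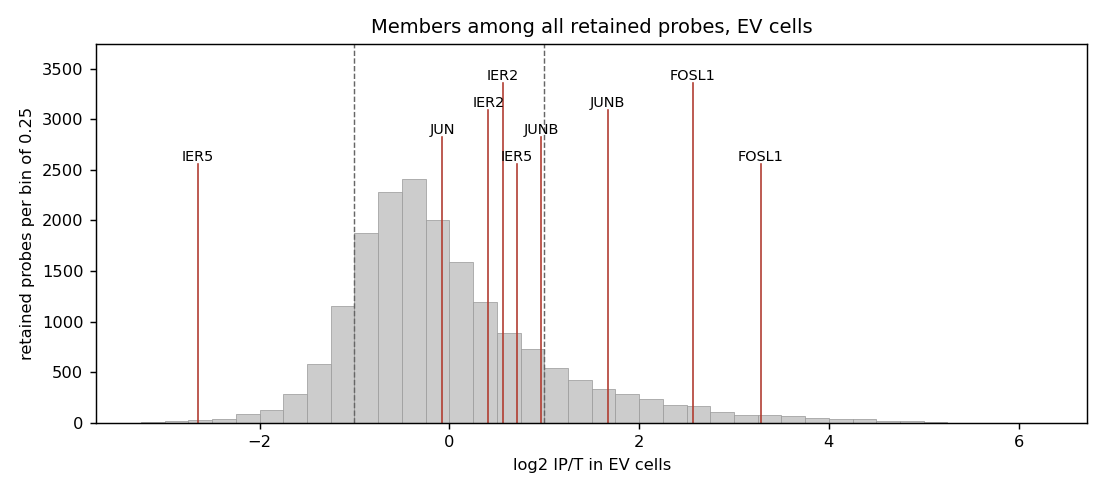
Number of retained probes (y axis) per bin of 0.25 of log2 IP/T in EV cells (x axis), with each retained member probe as a red line carrying its gene symbol. Dashed lines mark 2-fold. The FOSL1 lines lie in the right tail and 1 IER5 line in the left tail, and the JUN line is near the middle.

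Some of the members that were not retained give limits in place of ratios. EGR1, a zinc finger factor and one of the first genes induced by serum, had log2 signals in total RNA of 3.90 and 4.01 in EV and 4.06 and 4.82 with miR-155-sp, none of them well above background. In IP RNA its probe A_23_P214080 gave 6.50 and 6.23 in EV and 6.78 and 6.53 with miR-155-sp, of which the Cy3 signals were well above background. EGR1 was thus detected in IP RNA only. Total RNA was set to the lowest signal that was well above background in each channel, or to the probe's own signal where higher. The limit computed for IP over total was then 2.33-fold in EV and 2.54-fold with miR-155-sp. Those lowest signals lay between 4.02 and 6.56 over the channels, and signals not well above background can exceed them. In miR-155-sp total RNA, FOSL2 probe A_23_P345581 gave 7.41 in Cy5 without passing the flag. The limits are therefore not strict lower bounds. These limits use the mean of both IP labellings, of which the Cy5 one was not well above background, and under normexp with loess and Aquantile the log2 IP/T was 0.17 and 0.21, less than the limits, so an enrichment of EGR1 past 2-fold depends on the processing.

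FOS, the prototype Fos protein, was not well above background in any channel. Its probe A_23_P106194 gave 3.85 and 5.32 in EV total, 4.19 and 3.27 in EV IP, 4.67 and 3.28 in miR-155-sp total, and 5.04 and 3.18 in miR-155-sp IP, and no ratio is given. At this signal FOS mRNA was not detectable by this probe, which does not show that it was absent.

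FOSB, a Fos protein known for its induction by repeated stimulation, was well above background in 3 channels. In total RNA, probe A_23_P429998 gave 4.92 and 3.40 in EV cells, the former well above background, and 4.62 and 6.94 with miR-155-sp, both well above background. Its IP signals, 3.97 and 5.10 in EV and 3.79 and 4.62 with miR-155-sp, were not. Averaged over the labellings, the limit computed for total over IP with miR-155-sp was 1.25-fold. It rests on the Cy5 total signal of 6.94, and on the array with IP in Cy5 the IP/T ratio was 0.999. The value is therefore not a lower bound that holds on both arrays. For EV cells no limit above 1 could be set. The 2 total signals with miR-155-sp differed far more than 2-fold, so the Fos member FOSB has no usable sponge response.

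FOSL2, a Fos protein related to FOSL1, had 3 probes, and in none of them did all labellings lie within 2-fold. Probe A_23_P218555 gave 7.03 and 5.71 in EV total, 6.04 and 5.40 in EV IP, 6.99 and 6.16 in miR-155-sp total, and 6.14 and 6.40 in miR-155-sp IP, with the Cy3 signals alone well above background. A_23_P345581 was also well above background in the Cy3 channels alone, and A_23_P348121 in 3 of the Cy3 channels. With miR-155-sp the IP/T ratios were 0.809 (0.663 and 0.988), 0.410 (0.621 and 0.271) and 0.416 (0.340 and 0.510), below 1 in both orientations for each probe. Each of these ratios includes a Cy5 signal that was not well above background. Under normexp with loess and Aquantile the log2 ratios were 0.04, -0.076 and -0.0091, so a ratio of FOSL2 below 1 depends on the processing. In EV cells the orientations fell on either side of 1 for A_23_P218555 (0.324 and 1.26) and A_23_P345581 (0.835 and 1.44). For A_23_P348121 neither labelling of the EV total RNA passed the background flag, and no ratio is given for it there. The limit computed for IP over total was 1.30-fold, and it includes a Cy5 IP signal that was not well above background. On the array with IP in Cy3 the total signal (5.77) exceeded the IP signal (5.14), so this limit does not hold on both arrays. The FOSL2 probes gave no direction in EV cells.

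The sponge comparison asked whether these mRNAs or their share on Ago2 differed between miR-155-sp and EV cells. The paper proposes that the sponge left part of the miR-155 in its Hodgkin lymphoma lines unbound. Small changes below therefore do not show that miR-155 has no action on these mRNAs. No retained member probe changed 2-fold in total RNA (background 0.363%), in IP RNA (0.234%) or in IP/T (1.45%). The log2 changes (miR-155-sp minus EV) lay between -0.11 and 0.16 in total RNA, which is at most 1.12-fold either way, between -0.32 and 0.34 in IP RNA (at most 1.27-fold) and between -0.31 and 0.41 in IP/T (at most 1.33-fold).

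In total RNA 2 probes were higher in both labellings (32.4% of all retained probes), 3 lower in both (32.9%) and 4 split. The probe higher by most was JUNB A_23_P4821, with a log2 change of 0.16 ± 0.01 (SD, n = 2 dye orientations), and the other probe of the same gene changed by -0.01 ± 0.10. JUN changed by -0.10 ± 0.05. The IER5 probes changed by 0.10 ± 0.01 and -0.03 ± 0.01.

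In IP RNA 4 probes were higher in both labellings (30.5%), 4 lower in both (32.6%) and 1 split. FOSL1 was higher with both probes, by 0.29 ± 0.01 and 0.31 ± 0.22 on the log2 scale. IER2 was lower with both, by -0.11 ± 0.03 and -0.10 ± 0.02. JUNB and IER5 each had 1 probe higher and 1 lower.

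In IP/T 3 probes were higher in both dye orientations (30.6%), 3 lower in both (30.3%) and 3 split, close to the shares over all retained probes. Higher in both were FOSL1 A_23_P322519 (0.41 ± 0.37 on the log2 scale), IER5 A_24_P379223 (0.37 ± 0.06) and JUN (0.13 ± 0.09). Lower in both were JUNB A_24_P241815 (-0.31 ± 0.23), IER5 A_23_P86330 (-0.27 ± 0.07) and IER2 A_32_P36235 (-0.14 ± 0.05). FOSL1 A_23_P161624 (0.14 ± 0.41), JUNB A_23_P4821 (0.12 ± 0.34) and IER2 A_23_P153905 (0.01 ± 0.10) moved less than this SD. Under normexp with loess and Aquantile FOSL1 A_23_P322519 changed by -0.039. With a common median per channel in place of quantile normalization IER2 A_32_P36235 changed by 0.0083. The direction of both probes thus depends on the processing.

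Of the 4 genes with 2 retained probes, JUNB, IER2 and IER5 had one probe higher and the other lower in IP/T by their means, where the higher IER2 probe changed by 0.01 only. The median log2 change of IP/T over the 9 probes was 0.12, and over all retained probes it was -0.0025. On the arrays with IP in Cy3 alone the members' median was -0.12, so the direction of this median is not settled.

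**Figure D4:**
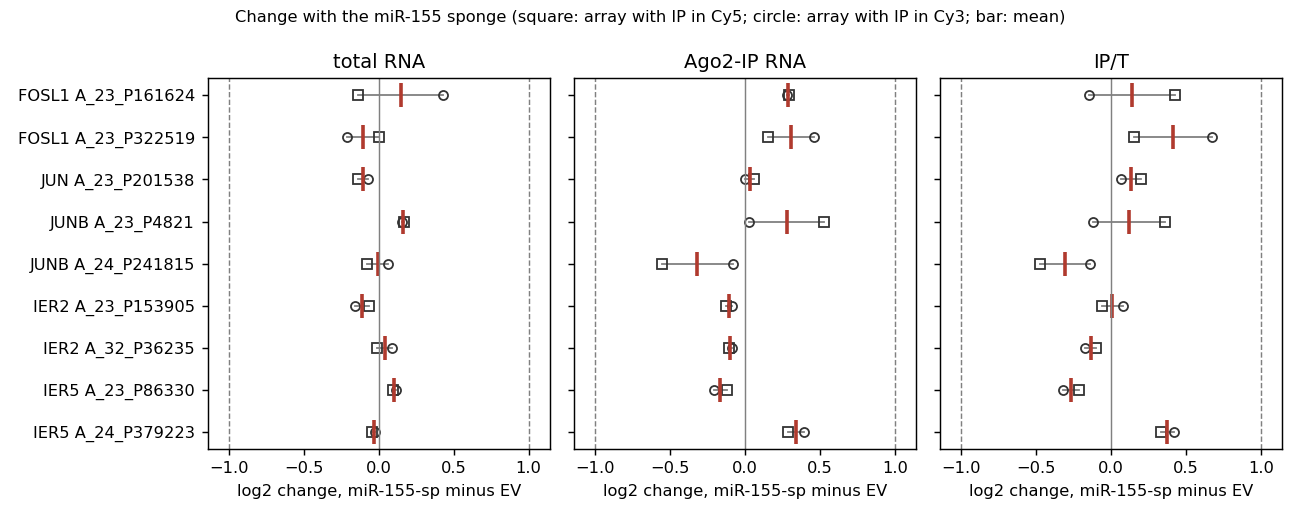
Log2 change with the miR-155 sponge (x axes, miR-155-sp minus EV) of the 9 retained member probes (y axis) in total RNA, Ago2-IP RNA and IP/T, with squares for arrays with IP in Cy5, circles for arrays with IP in Cy3 and red bars for the mean. Dashed lines mark 2-fold. No mean passes 2-fold in any of the panels.

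The members' dimer partners and related bZIP factors had IP/T ratios from 0.496 to 33.0 in EV cells. Of 18 such genes 17 had a probe, and 13 probes of 10 genes were retained, of which 3 reached 2 in EV cells (background over all retained probes 14.8%) and 1 a ratio of 0.5 or less (background 12.9%). Their median log2 IP/T was -0.39, and that over all retained probes was -0.24. BACH1, a repressor regulated by heme, stood at 33.0 in EV and 29.4 with miR-155-sp. NFE2L2, the main factor of the oxidative stress response, stood at 12.3 and 18.2, and JDP2, which dimerizes with JUN and represses, at 2.33 and 2.32.

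At the other end of the list, NFE2L1, a regulator of proteasome genes, stood at 0.496 in EV cells, ATF4, the effector of the integrated stress response, at 0.515, and MAF at 0.694. The largest rise of IP/T with the sponge was that of NFE2L2, whose log2 change was 0.56, with 0.96 on the arrays with IP in Cy5 and 0.16 on those with IP in Cy3. The next was NFE2L1 with 0.18. ATF4 changed by -0.27 and BACH1 by -0.17.

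Among other immediate early genes, most of the retained probes were enriched in IP. All 33 genes had a probe, and 17 of the 27 probes retained were enriched 2-fold or more in EV cells (background over all retained probes 14.8%), for 14 of 21 genes, and none had a ratio of 0.5 or less (background 12.9%). In miR-155-sp cells these counts were 17 (background 15.6%) and 0 (background 14.1%). Their log2 IP/T had a median of 1.88 in EV and 1.75 with miR-155-sp, against 0.71 and 0.44 for the members. The lists were chosen with earlier results of these data known, so these shares and medians describe the listed genes only. They are not independent evidence about immediate early genes as a class. BTG2, an antiproliferative protein that recruits the deadenylation machinery, stood at 35.6 in EV and 37.3 with miR-155-sp. ZFP36, which binds AU-rich elements and promotes mRNA decay, stood at 12.9 and 11.9, and DUSP2, a nuclear MAP kinase phosphatase, at 12.6 and 13.7.

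The lowest of this list were IER5L (0.696), a paralog of IER5, PPP1R15A (0.715), which restores translation after stress, and DUSP4 (0.857). With the sponge, IP/T rose most for the survival factor MCL1 (log2 change 0.53, with 0.72 and 0.33 by orientation) and the MAP kinase phosphatase DUSP1 (0.47, with 0.21 and 0.74). It fell most for DUSP6 (-0.47, with -0.56 and -0.38), another MAP kinase phosphatase, and CSRNP1 (-0.44, with -0.60 and -0.28). The DUSP6 probe was well above background in 4 channels only, and its IP/T in EV cells was 1.21 and 3.36 by orientation. None of these changes reached 2-fold. The log2 change in total RNA was -0.11 for MCL1, -0.60 for DUSP1, 0.02 for DUSP6 and 0.23 for CSRNP1. For DUSP1 the fall in total RNA was larger than the rise of IP/T, so its IP RNA was not higher with the sponge.

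Among kinases and transcription factors upstream of AP-1, 17 of 19 genes had a probe and 23 probes of 16 genes were retained, 6 with IP/T of 2 or more (background over all retained probes 14.8%) and 2 with a ratio of 0.5 or less (background 12.9%) in EV cells, with a median log2 IP/T of 0.0022. High ratios in EV cells were those of MAP2K4, which activates JNK (4.59), and ELK3, a partner of serum response factor (3.95). ELK1, a factor of the same family as ELK3, stood at 0.414, MAP2K2 at 0.439 and a MAPK14 probe at 0.623. With the sponge, the log2 IP/T of ELK1 changed by 0.52 and that of RPS6KA3, a ribosomal S6 kinase, by 0.50, whereas MAP2K1 changed by -0.31. In total RNA the log2 change was -0.13 for ELK1, -0.38 for RPS6KA3 and 0.07 for MAP2K1. Another MAPK14 probe, well above background in 4 channels only, changed by -0.35. Its change was 0.06 on the arrays with IP in Cy5 and -0.76 on those with IP in Cy3, so its direction is not settled.

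Of 12 known AP-1 target genes, 11 probes of 8 genes were retained, with 3 probes at IP/T of 2 or more (background over all retained probes 14.8%) and 2 at 0.5 or less (background 12.9%) in EV cells, 2 (background 15.6%) and 2 (background 14.1%) with miR-155-sp, and a median log2 IP/T of 0.04 in EV cells. CCND2, a cyclin of the G1 phase, had the highest ratio (2.33), followed by the protease gene PLAU (2.27) and LGALS1 (1.06). MMP9 (0.426) and MIR155HG had the lowest, and TNFRSF8, the CD30 receptor gene, was at 0.841. With the sponge, the log2 IP/T of another CCND2 probe changed by 0.36 (0.29 and 0.44 by orientation). The CCND2 probe with the ratio of 2.33 changed by -0.07 (-0.06 and -0.09). The log2 IP/T of VIM changed by 0.35 and that of PLAU by -0.22. In total RNA these CCND2 probes changed by -0.18 and -0.17, VIM by -0.38 and PLAU by -0.47. For VIM the fall in total RNA was larger than the rise of IP/T, so its IP RNA was not higher with the sponge.

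MIR155HG, whose promoter window is printed above, gave log2 signals of 9.67 and 9.73 in EV total, 8.38 and 8.55 in EV IP, 9.92 and 9.82 in miR-155-sp total, and 8.61 and 9.07 in miR-155-sp IP. All IP signals were below all total signals. Its IP/T ratio was 0.426 in EV (0.460 and 0.394) and 0.491 with miR-155-sp (0.556 and 0.433). The log2 change was 0.17 ± 0.11 in total RNA, 0.37 ± 0.21 in IP RNA and 0.20 ± 0.10 in IP/T (SD, n = 2 dye orientations), each less than 2-fold.

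**Figure D5:**
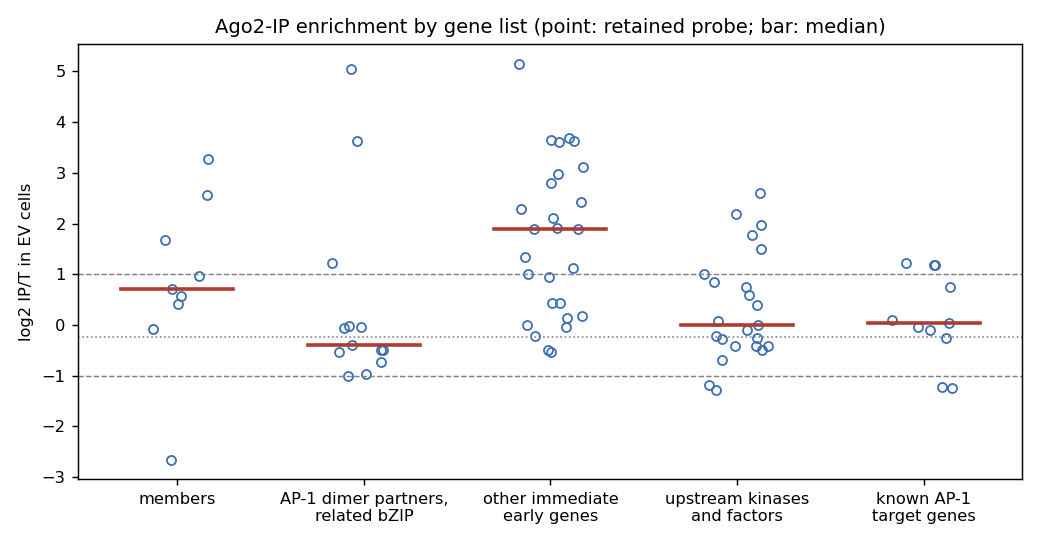
Log2 IP/T in EV cells (y axis) of each retained probe (circles) for the members and 4 lists of related genes (x axis), with red bars at the list medians. Dashed lines mark 2-fold and the dotted line the median over all retained probes, -0.24. The median of the other immediate early genes is 1.88, and those of the bZIP factors and the upstream list are -0.39 and 0.0022.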

How the data were processed

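Total and Ago2-IP RNA of EV and miR-155-sp KM-H2 cells were measured on 4 dye-swapped arrays. The authors deposited scanner output of Agilent Feature Extraction (10.7.3.1 per the file headers, 10.5.1.1 per the labels), in which each spot has an intensity after background subtraction and dye normalization. The authors also deposited log2 values for 16065 probes, made by quantile normalization and filtering. These include all 9 retained member probes, and over 16057 shared probes they differed from the values computed here by a median of 0.00056.

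Control spots and outlier spots (74 to 100 per channel) were left out, and none was saturated. Replicate spots were averaged, and log2 signals were quantile-normalized over the 8 channels. Filters on detection (4 channels) and agreement of the labellings (2-fold) were modelled on the study's methods. They kept 17912 probes, against 16065 in the authors' values, so the filters were not identical. IP/T is the mean IP minus the mean total log2 signal so it carries no amount of bound RNA in absolute terms, and signals near background distort it. For EGR1, FOSB and FOSL2 A_23_P348121, with both labellings of 1 fraction not well above background, computed limits are given. Through RefSeq accessions 23958 of 41000 probes (58.4%) were named. Per-array files deposited for both channels were identical, and each channel was used once.

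No test was possible with 1 sample per group. Counts and medians of the members are set beside those over all retained probes. The genes named were all member probes, MIR155HG and, in each list, the 3 highest and 3 lowest IP/T in EV cells and the 2 largest rises and falls with the sponge. Some genes that this rule names are not reported here. The members and lists were chosen with earlier results of these data known. The 10 alternatives were a common median, normexp (offset 50) with loess and Aquantile, the authors' values, other filters, single labellings and single dye orientations. Python 3.11.15, numpy 2.4.6, pandas 2.3.3, R 4.3.3 and limma 3.58.1 were used, and the code was tested on simulated data.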

Additional observations from a re-analysis of the deposited data

Results flagged for a closer look

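FOSB A_23_P429998 had a log2 IP/T that was -1.95 with miR-155-sp relative to EV. IP/T was above 1 on both arrays of EV cells (1.13 and 1.48) and below 1 on both arrays of miR-155-sp cells (0.999 and 0.112), which is why it is listed. The difference was not tested. The IP signals of this probe were not well above background in either population, and its total signal in miR-155-sp cells was 4.62 in Cy3 and 6.94 in Cy5. Under normexp with loess and Aquantile the log2 change was -0.16.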

How the results depend on the processing

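No paired analysis was possible because each group is 1 RNA sample and its 2 labellings are technical. The count of member probes at an IP/T of 2 or more lay between 3 and 4 in EV cells when one labelling was left out and was 3 with miR-155-sp, and the count at 0.5 or less was 1 in both. Without the agreement filter the latter was 2 with miR-155-sp. With probes well above background in all 8 channels, the count at 2 or more was 2 of 8 in both populations. Without a detection filter it was 4 of 10 in both. The median log2 IP/T with miR-155-sp (0.44) was 0.63 on arrays with IP in Cy3 alone. The median log2 change of IP/T (0.12) was -0.12 on arrays with IP in Cy3 alone and between -0.00087 and 0.034 with one labelling left out. The median log2 change in total RNA (-0.0084) was 0.063 on arrays with IP in Cy3 alone and between -0.043 and 0.063 with one labelling left out. The median log2 change in IP RNA (0.030) was 0.096 with a common median, -0.034 with probes well above background in all 8 channels and 0.15 without a detection filter. The causes were not tested. Of 36 values per setting over the 9 probes, normexp moved 15 by more than their SD and the common median 5. One total signal of FOSL1 A_23_P322519 and all total signals of EGR1 were not well above background. A control precipitation was not analysed here.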
